A study of Mus musculus with 9 samples.

Results

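Ribosome biogenesis factors are the proteins that transcribe, modify, fold and cut ribosomal RNA and carry the 2 ribosomal subunits out of the nucleus. The account below covers 40 mouse genes of this kind, taken as a list of gene symbols and matched to the Ensembl gene identifiers of the liver RNA-seq count files through the GENCODE vM21 annotation of GRCm38. All 40 symbols matched 1 gene each, out of 56719 genes listed per library, and all 40 passed the filter on low counts that left 17704 genes to test. The list holds 4 genes of RNA polymerase I transcription, 7 of the small nucleolar ribonucleoproteins (snoRNPs), 3 abundant nucleolar proteins, 15 factors of the small subunit and 11 of the large subunit.

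The study sequenced polyadenylated RNA from the liver of C57BL/6J mice in 3 groups of 3 libraries. WT mice received PBS during the 4 weeks of pretreatment and PBS into the tail vein on the day of collection. Con A mice received the same PBS pretreatment and then 10 mg/kg of Con A, which is concanavalin A, a lectin from jack beans that stimulates T cells and thereby damages hepatocytes, on the day of collection. FMT-Con A mice were gavaged for 4 weeks with a PBS suspension of faeces from mice with Con A-induced autoimmune hepatitis (AIH) and then received the same 10 mg/kg of Con A, so that no group had the faeces without the lectin and the WT group had neither. The design text puts the aim as finding pathways that bear on self-healing of the liver. Beyond numbering the mice of a group, the labels do not state whether libraries are from separate animals. The p-values therefore speak only of the spread among these 9 libraries, which may be technical.

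In background terms, RNA polymerase I makes 1 long precursor RNA in the nucleolus, snoRNPs guide 2'-O-methylation and pseudouridylation of it, and the small-subunit processome and the large-subunit assembly factors bind it in sequence while it is cut. Most of these factors leave before the subunits reach the cytoplasm and are used again. Their genes are among the classic targets of the transcription factor MYC, and in liver they are known to rise when hepatocytes grow or prepare to divide, as after partial hepatectomy.

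Libraries held 20513051 to 29466806 counts, and the lowest count of any of the 40 genes in any library was 84. Levels are given as CPM, the counts scaled to library total and TMM factor, and fold changes on the log2 scale (log2 change). The 13 hepatocyte markers were abundant in all 9 libraries, with sums of 70900 to 82400 CPM in WT, 78200 to 90000 CPM in Con A and 50700 to 64100 CPM in FMT-Con A, where every library lay below those of the other groups. The sums hide a split. After Con A 6 of the 13 rose and 5 fell (edgeR adjusted p under 0.05), where 32.5% of all genes tested rose and 30.9% fell. Fgb rose from a mean of 2090 to 18200 CPM, while Apoa2 fell from 7690 to 3270 CPM. Alb, albumin, was at 38800 ± 5860 CPM in WT, 35400 ± 2290 CPM in Con A and 19200 ± 1260 CPM in FMT-Con A (SD, n = 3), a log2 change of -0.88 from Con A to FMT-Con A (edgeR adjusted p = 0.0221). Other features moved with the groups too. The share of counts from the mitochondrial genome was 19.6 to 22.4% in WT, and fell to between 5.03 and 9.96% in Con A and between 7.44 and 11.7% in FMT-Con A. In WT the 17 T and NK cell markers had a sum of 15.2 to 19 CPM and the 10 neutrophil markers one of 15.4 to 20.6 CPM. Con A libraries had sums of 57.1 to 97.1 and 275 to 485 CPM, and FMT-Con A libraries sums of 26.8 to 34.7 and 214 to 335 CPM. Of 16 T and NK cell markers tested, 12 rose and 1 fell after Con A. Against WT, FMT-Con A had 6 risen and 2 fallen, where 31.2% of all genes tested rose and 27.9% fell. Its Gzmb mean was 11 CPM against 1.13 CPM in WT, and its Cd4 mean 0.845 against 3.1 CPM. The 24 skeletal muscle genes had a sum of 55.4 to 68.2 CPM in WT. It was 15.2, 27.6 and 2510 CPM in Con A 1 to 3 and 20900, 2180 and 20700 CPM in FMT-Con A 1 to 3, so that FMT-Con A 1 and 3 stand apart. With scaling factors computed without mitochondrial and muscle genes, all 32, 5 and 29 calls given below for the 3 comparisons remained. That fit bears on the scaling alone, and cannot show whether RNA of the 40 genes came with the muscle transcripts. The part of the hepatocyte, immune and muscle markers in the results was not tested. In whole liver, a change in the number of cells of a type and a change of RNA per cell cannot be told apart. The sample labels give the sex as female and the housing protocol as male: the Y-linked Ddx3y stood at 99.8 to 259 CPM and Xist at 1.04 to 6.36 CPM across the 9 libraries. Y-linked RNA was thus present in every library, which goes with the male entry.

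In WT liver the 40 genes ran from 5.03 CPM (Gar1) to 244 CPM (Ncl), and 39 of them had a mean under 100 CPM. Per kilobase of the longest principal mRNA in GENCODE, Npm1 was the most abundant in WT with 54.5 CPM per kb, ahead of Ncl with 29.7 and Gnl3 with 26.6 CPM per kb, while Rrp12 stood at 1.86 CPM per kb. The Ncl value divides by a transcript of 8202 bp, so a shorter main transcript would raise it. In Con A liver the level of Npm1 was 107 CPM per kb, of Gnl3 52.3 and of Nop58 47.8 CPM per kb. Spread between libraries was modest, with a median coefficient of variation over the 40 genes of 10.4% in WT, 9.84% in Con A and 6.76% in FMT-Con A.

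The first comparison, Con A with WT, asks what the lectin injury did. Most of the ribosome biogenesis factors were higher after Con A. Of the 40 genes, 31 rose, 1 (Dkc1) fell and 8 did not pass the threshold (edgeR quasi-likelihood F test, two-sided, Benjamini-Hochberg adjusted p under 0.05). Among all 17704 genes tested, 32.5% rose and 30.9% fell (63.4% in either direction), against 77.5% and 2.5% of the 40. The 40 genes were chosen with earlier results of these data known, so the contrast describes these genes and is no test of the pathway. Lists of other factors of the same machinery, given below, had lower medians, from -0.16 to 0.64. The median log2 fold change of the 40 was 0.79, against 0.01 over all genes tested, and 35 of 40 values were positive. At 2-fold or more, 15 members (37.5%) rose, where 21.6% of all genes did. In 33 of 40 genes all 3 Con A libraries were above all 3 WT libraries, a pattern seen in 35% of all genes tested, and in 1 gene they were all below, seen in 34.8%.

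Summed over the 40 genes, WT 1 to 3 held 1120, 1200 and 996 CPM and Con A 1 to 3 held 1860, 1750 and 1760 CPM. The Con A libraries did not overlap with WT. WT 3 was the lowest WT library for 31 of the 40 genes and Con A 2 the lowest Con A library for 24 of them. The heat map of levels relative to WT shows both.

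**Figure D1:**
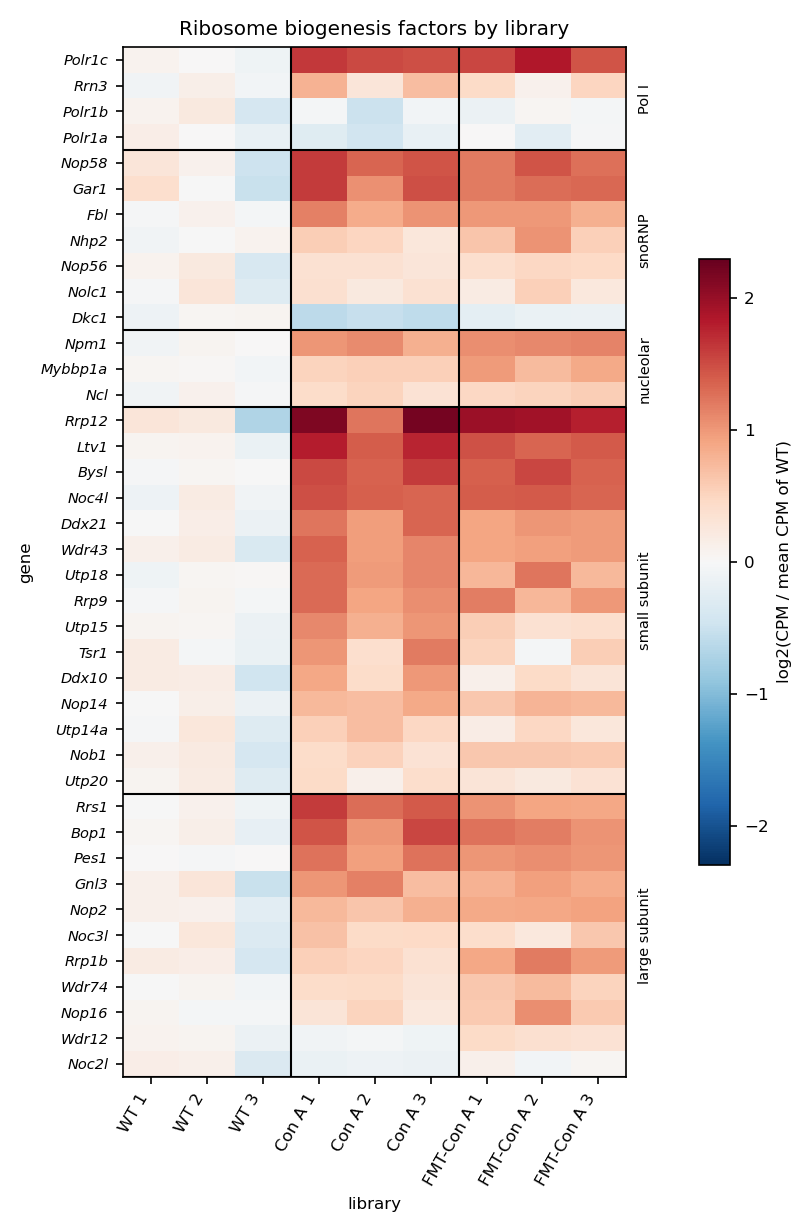
Level of each of the 40 genes (rows, grouped by role) in each of the 9 libraries (columns), as log2 of CPM over the mean CPM of the WT libraries; red is above and blue below the WT mean. Rrp12 and Polr1c are among the reddest rows in the 6 libraries of injected mice, with Rrp12 paler in Con A 2 than in Con A 1 and 3. Dkc1 is blue in Con A, and WT 3 is paler or bluer than the other WT libraries in most rows.

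The stretches of DNA around the start sites of these genes were examined because so many of the genes moved together. RefSeq promoter windows on GRCm38.p6, 250 bases before to 50 bases after the annotated start, were matched for 35 of the 40 genes (the others, not matched, were Bop1, Fbl, Npm1, Rrp12 and Rrs1). Shown are Ltv1 and Utp18 (2 risen small-subunit genes that hold both words in capitals), Pes1 (a risen large-subunit gene with only the first word), Polr1c (the most risen polymerase gene, with only the second) and Dkc1 (the gene that fell, with neither). Each is written 5′ to 3′ on the strand of its gene. Capitals mark the word CACGTG, the E-box that MYC and related factors bind, and the word CCGGAAG or its reverse complement CTTCCGG, the core bound by ETS factors.
Ltv1: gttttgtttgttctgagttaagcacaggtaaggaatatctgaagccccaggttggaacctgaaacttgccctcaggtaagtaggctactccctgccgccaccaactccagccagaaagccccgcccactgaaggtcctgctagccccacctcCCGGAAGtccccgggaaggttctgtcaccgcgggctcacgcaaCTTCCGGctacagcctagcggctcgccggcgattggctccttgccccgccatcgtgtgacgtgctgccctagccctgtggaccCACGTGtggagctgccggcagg
Utp18: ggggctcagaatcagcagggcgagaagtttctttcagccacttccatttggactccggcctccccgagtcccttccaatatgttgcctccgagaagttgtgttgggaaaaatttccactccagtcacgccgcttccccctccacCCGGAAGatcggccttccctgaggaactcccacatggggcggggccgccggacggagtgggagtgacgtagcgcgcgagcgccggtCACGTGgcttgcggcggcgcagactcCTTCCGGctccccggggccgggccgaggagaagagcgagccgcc
Pes1: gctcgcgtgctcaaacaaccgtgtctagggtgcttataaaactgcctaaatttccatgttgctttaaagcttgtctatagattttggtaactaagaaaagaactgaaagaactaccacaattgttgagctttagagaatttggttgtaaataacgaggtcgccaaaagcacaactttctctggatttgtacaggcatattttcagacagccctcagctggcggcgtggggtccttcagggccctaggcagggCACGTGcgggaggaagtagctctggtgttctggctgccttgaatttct
Polr1c: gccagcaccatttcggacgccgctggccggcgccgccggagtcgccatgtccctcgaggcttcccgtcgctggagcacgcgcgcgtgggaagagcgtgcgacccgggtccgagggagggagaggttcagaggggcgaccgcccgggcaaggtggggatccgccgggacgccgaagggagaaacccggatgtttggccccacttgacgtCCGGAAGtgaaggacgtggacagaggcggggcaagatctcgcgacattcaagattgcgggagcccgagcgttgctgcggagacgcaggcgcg
Dkc1: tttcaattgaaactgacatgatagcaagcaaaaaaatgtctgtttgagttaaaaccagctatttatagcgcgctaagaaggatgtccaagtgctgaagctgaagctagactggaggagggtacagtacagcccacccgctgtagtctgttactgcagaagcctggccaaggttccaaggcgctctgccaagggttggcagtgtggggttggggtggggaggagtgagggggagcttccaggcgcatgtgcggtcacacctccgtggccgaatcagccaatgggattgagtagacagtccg
These windows lie at chr10:13193088-13193387 on the minus strand for Ltv1, chr11:93885717-93886016 on the minus strand for Utp18, chr11:3963725-3964024 on the plus strand for Pes1, chr17:46247996-46248295 on the minus strand for Polr1c and chrX:75095604-75095903 on the plus strand for Dkc1, and each covers the upstream flank and the start of exon 1 of its gene.

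The 35 genes had 39 windows, with 2 each for Noc2l and Rrp1b and 3 for Wdr12, and a gene was counted when any of its windows held the word. CACGTG, its own reverse complement, was held by 9 of the 35 genes (25.7%), namely Ltv1, Mybbp1a, Nop2, Pes1, Rrn3, Tsr1, Utp18, Utp20 and Wdr43. It was held by 8.09% of 27025 genes and by 8.91% of 17492 protein-coding genes. Rrn3 holds the word at 2 places, so there were 10 in all, and 6 of the 10 began after the annotated start, at base 3 (Pes1) to base 41 (Mybbp1a) of the transcript. Over all windows 13.9% of 2589 such words did. CCGGAAG, on either strand, was found in 13 of 35 genes (37.1%), against 9.93% of all genes and 12.9% of coding genes. The GC box GGGCGG, on either strand, was in 29 of 35 (82.9%), against 38.2% and 49.2%. TTCNNNGAA, a palindrome bound by STAT factors that can overlap the ETS word, was in 6 of 35 (17.1%), against 9.55% and 8.92%. The windows of the members were richer in G and C, with a median of 59.7% against 56.3% for coding genes, and the shares were not matched on it. Nor were the shares of other genes limited to the 17704 genes tested in liver, whereas every member was tested. Among 26 risen genes with a window and 8 that did not pass, CACGTG was in 8 and 1, and CCGGAAG in 11 and 2. GGGCGG was in 22 and 7, and TTCNNNGAA in 5 and 1. Whether any word goes with the rise was not tested. The window of Dkc1 held none of the 4 words. A match describes letters and not a bound site.

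RNA polymerase I genes did not move as a block. Polr1c, a subunit shared by RNA polymerases I and III (chromosome 17, 46243920 to 46248054, minus strand), stood at 8.46, 8 and 7.47 CPM in WT 1 to 3 and at 24.5, 22.9 and 22.4 CPM in Con A 1 to 3. All Con A libraries were far above all WT libraries, from 7.98 ± 0.494 to 23.3 ± 1.1 CPM (SD, n = 3), a log2 change of 1.54 (SE 0.13, edgeR adjusted p = 6.98e-06). Rrn3, the initiation factor that recruits the polymerase to the ribosomal DNA promoter, was at 15.1, 17.5 and 15.2 CPM in WT and 27.7, 19.3 and 26.1 CPM in Con A. It rose by 0.61 (SE 0.16, edgeR adjusted p = 0.00798), with Con A 2 closest to WT. The 2 largest subunits, which form the catalytic centre, did not pass: Polr1a was at 34.2, 30.8 and 27.3 CPM in WT and 25.4, 22.7 and 27.3 CPM in Con A (log2 change -0.29, edgeR adjusted p = 0.067). Polr1b had a log2 change of -0.19 (95% interval -0.58 to 0.21). The WT and Con A libraries of both genes overlapped.

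Of the 7 snoRNP genes 4 rose, 1 fell and 2 did not pass. Nop58, a core scaffold of box C/D snoRNPs, rose from 35.8, 31.8 and 21.3 CPM to 90.5, 74.5 and 80.6 CPM (log2 change 1.47, SE 0.19, edgeR adjusted p = 8.85e-05). Fbl, fibrillarin, the methyltransferase of the same particle, went from 17.9, 19.5 and 17.7 CPM to 40.8, 33 and 37.3 CPM, a log2 change of 1.01 (SE 0.11, edgeR adjusted p = 4.17e-05). Nop56, the partner of Nop58 in the particle, was at 32.7, 36.3 and 23.8 CPM in WT and 39.2, 39.2 and 37.5 CPM in Con A. Its libraries did not overlap, yet it missed the threshold (log2 change 0.32, edgeR adjusted p = 0.0765).

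The H/ACA particle, which makes pseudouridine and whose core proteins are also part of telomerase, held genes that moved in opposite directions. Gar1 rose from 6.59, 5 and 3.51 CPM to 15.4, 10.4 and 14 CPM (log2 change 1.4, SE 0.23, edgeR adjusted p = 0.000507). Nhp2 rose by 0.45 (SE 0.15, edgeR adjusted p = 0.0219). Dkc1, dyskerin, the pseudouridine synthase itself (X chromosome, 75095854 to 75109777, plus strand), fell from 26.3, 29.3 and 29.7 CPM to 18.6, 19.7 and 19 CPM. No Con A library reached a WT library, and the log2 change was -0.57 (SE 0.1, edgeR adjusted p = 0.000578). Nolc1, a nucleolar chaperone of both particle types, had a value of 0.31 that did not pass (edgeR adjusted p = 0.107). Of the other snoRNP and exosome genes, 13 of 24 tested rose and 4 fell, where 32.5% of all genes rose and 30.9% fell. Among them were Naf1, which assembles H/ACA particles before Gar1 joins, with a log2 change of 1.68, and the exosome subunit Exosc5 with -1.33.

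All 3 abundant nucleolar proteins rose. Npm1, nucleophosmin, a chaperone of ribosome assembly that also binds the p53 regulator ARF, stood at 84.6, 93.4 and 89.2 CPM in WT and 179, 189 and 158 CPM in Con A (log2 change 0.98, SE 0.12, edgeR adjusted p = 7.61e-05). The groups were far apart, although Npm1 has processed copies in the genome whose reads the counting may have split. Ncl, nucleolin, an RNA-binding protein of early precursor processing, was at 231, 262 and 238 CPM and then 326, 350 and 307 CPM (log2 change 0.43, SE 0.13, edgeR adjusted p = 0.0135). Mybbp1a, a nucleolar co-regulator of MYB and p53, was at 103, 105 and 105 CPM in Con A after 74.3, 73.6 and 68.8 CPM in WT (log2 change 0.53, edgeR adjusted p = 0.00222).

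The small-subunit factors had the highest median, 1.11 on the log2 scale, and 14 of 15 rose. The largest rise of the 40 was that of Rrp12, a HEAT-repeat protein of precursor maturation and export (chromosome 19, 41862851 to 41896173, minus strand). It was at 9.79, 9.45 and 5.01 CPM in WT and at 36, 19 and 37.2 CPM in Con A. Con A 2 lay well below the other Con A libraries but above WT 1, the highest WT library, and the log2 change was 1.93 (SE 0.3, edgeR adjusted p = 0.000301). Ltv1, which leaves the late small subunit in the cytoplasm, rose from 9.65, 9.77 and 8.27 CPM to 32.2, 24.3 and 31.2 CPM (log2 change 1.66, SE 0.14, edgeR adjusted p = 5.84e-06). Bysl, bystin, another late factor, rose from 8.14, 8.6 and 8.27 CPM to 23.9, 21.4 and 25.4 CPM (log2 change 1.5, SE 0.12, edgeR adjusted p = 3.93e-06). In both genes every Con A library was far above WT.

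Among the other small-subunit factors, Noc4l, which binds the processome with Nop14, had a log2 change of 1.39 (SE 0.11) and Nop14 itself 0.78 (SE 0.11). Wdr43 and Utp15, of the subcomplex that also supports transcription of ribosomal DNA, rose by 1.16 (SE 0.16) and 0.98 (SE 0.13). Utp18 rose by 1.14 (SE 0.16). Rrp9, the protein specific to the snoRNP that organises the processome, rose by 1.11 (SE 0.15). The RNA helicases Ddx21 and Ddx10 rose by 1.19 (SE 0.13) and 0.79 (SE 0.21), with Ddx21 at 41.9, 46.9 and 38.5 CPM in WT and 100, 82.7 and 107 CPM in Con A. Utp14a rose by 0.58, and Nob1, the nuclease that makes the final cut of the small-subunit RNA, by 0.43 (edgeR adjusted p = 0.0297). Utp20 was the only small-subunit member that did not pass (0.33, edgeR adjusted p = 0.0724).

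Tsr1, a GTPase-like late factor, rose by 0.9 (SE 0.23, edgeR adjusted p = 0.00646), from 11.3, 9.59 and 8.93 CPM to 20, 12.9 and 22.8 CPM. Its exons overlap those of Srr on the opposite strand over 32.3% of their length, and the strand setting of the counting is not given in the sources used here, so reads in the shared stretch cannot be told apart. Srr had a log2 change of -0.61. Bysl overlaps Ccnd3 in the same way over 9.4% of its exons, and Ccnd3 had a log2 change of 0.58. Noc2l overlaps Samd11 over 20.9%, but Samd11 held only 31 counts over all libraries.

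Of the large-subunit factors, 8 of 11 rose and 3 did not pass, with a median of 0.53. Rrs1, which brings the small ribosomal RNA of the large subunit into the particle (chromosome 1, 9545408 to 9547455, plus strand), rose from 11.7, 12.6 and 11 CPM to 36.1, 28.6 and 31.3 CPM (log2 change 1.44, SE 0.12, edgeR adjusted p = 6.37e-06). Pes1, Bop1 and Wdr12 form 1 complex, known as PeBoW, that is needed to separate the large-subunit RNAs. Pes1 went from 16.1, 15.7 and 16.2 CPM to 37.9, 30.9 and 37.9 CPM (log2 change 1.15, SE 0.11, edgeR adjusted p = 1.3e-05). Bop1 went from 10.7, 11.4 and 9.18 CPM to 28.2, 20.9 and 30.3 CPM (log2 change 1.34, SE 0.16, edgeR adjusted p = 5.66e-05).

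Wdr12, the remaining PeBoW subunit, was at 15.2, 15.1 and 13.1 CPM in WT and 13.7, 13.9 and 13.4 CPM in Con A. Its groups overlapped, and the log2 change of -0.08 had a 95% interval of -0.33 to 0.17, apart from the intervals of Pes1 (0.91 to 1.39) and Bop1 (0.99 to 1.7). Gnl3, nucleostemin, a nucleolar GTPase of dividing cells, rose by 0.98 (SE 0.2, edgeR adjusted p = 0.00189), from 56.2, 62.8 and 36.4 CPM to 105, 116 and 84.3 CPM. Nop2, a cytosine methyltransferase of the large rRNA, rose by 0.74 (SE 0.12). Noc3l, Rrp1b and Wdr74 rose by 0.53, 0.46 and 0.39. Nop16 and Noc2l did not pass (0.36 and -0.13, edgeR adjusted p = 0.0513 and 0.406).

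How firm these calls are depends on the gene. No member changed sign between Con A and WT in any of the 19 alternative fits, and 24 of the 32 calls, Dkc1 among them, were made in every one. With upper quartile factors or library totals in place of TMM, the median of all genes tested shifted by -0.2 or -0.19 and 24 members rose instead of 31. The calls of Nhp2, Ncl, Nob1, Noc3l, Wdr74 and Rrp1b were lost under both, that of Utp14a under the first and that of Rrn3 under the second. Of these, Nhp2, Ncl, Nob1, Noc3l and Rrp1b also lost their call when 1 of several libraries was left out (WT 1 for Nhp2, Ncl and Noc3l, WT 2 for Nhp2, WT 3 for Ncl, Nob1, Noc3l and Rrp1b, Con A 1 for Nhp2, Nob1, Noc3l and Rrp1b, and Con A 2 for Nhp2, Nob1 and Rrp1b). Calls were gained as well. Polr1a was lower with upper quartile factors, with library totals and without WT 3, and Wdr12 was lower with upper quartile factors. Nop16, Nop56, Nolc1 and Utp20 were higher in other fits.

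**Figure D2:**
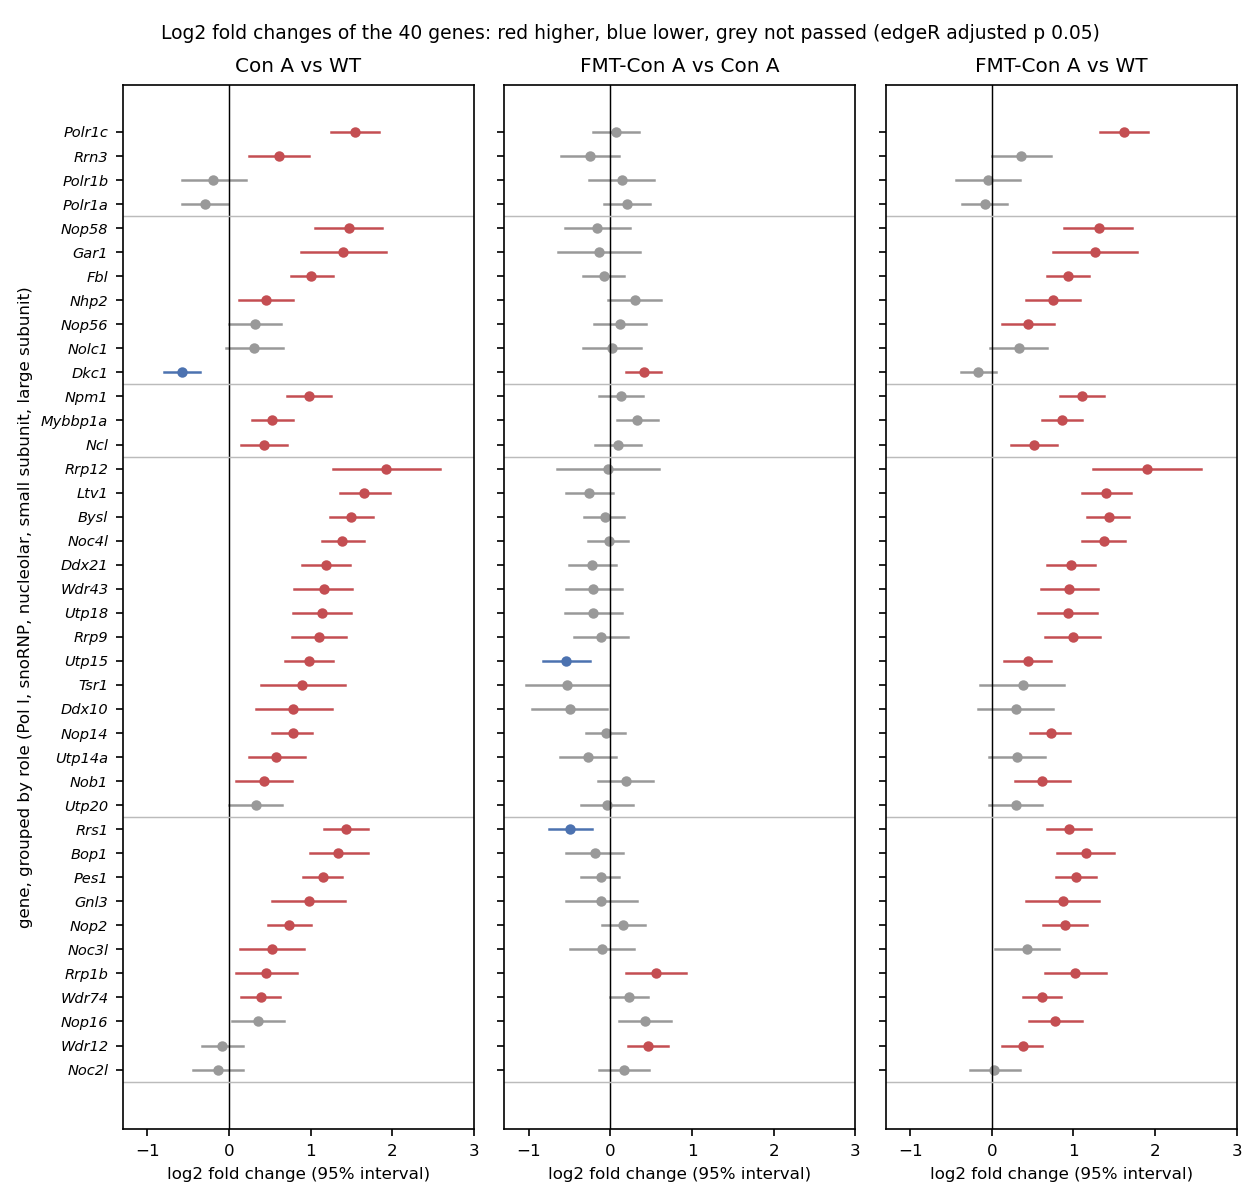
Log2 fold change with its 95% interval (horizontal axis) of each of the 40 genes (vertical axis, grouped by role) in the 3 comparisons of groups. In Con A vs WT 31 intervals are red (higher) and Dkc1 is blue (lower), in FMT-Con A vs Con A most are grey (not passed), and in FMT-Con A vs WT 29 are red.

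The second comparison, FMT-Con A with Con A, asks what the faecal gavage added in mice that all had the lectin. Few ribosome biogenesis factors differed. Dkc1, Wdr12 and Rrp1b were higher, Utp15 and Rrs1 were lower, and 35 did not pass (edgeR adjusted p under 0.05). Among all genes tested 6.26% were higher and 10.6% lower, (16.8% in either direction), against 7.5% and 5% of the 40, so these counts are near or below the background and are no result about the list. At an unadjusted p under 0.05 there were 9 of 40, where 34.1% of all genes had such a p. The median log2 fold change was -0.05, with a range of -0.54 to 0.56, so no member reached 2-fold, whereas 3.64% of all genes were higher by that much. The libraries did not overlap in 10 genes in the upward direction (14% of all genes tested) and 2 in the downward direction (18.8%).

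Dkc1, the gene that fell after Con A alone, was at 24.4, 25.5 and 26 CPM in FMT-Con A 1 to 3, above all Con A libraries (log2 change 0.41, SE 0.1, edgeR adjusted p = 0.0229) and below all WT libraries (26.3 to 29.7 CPM). Wdr12 was at 19.6, 18.5 and 18.1 CPM, above both other groups (0.46 against Con A, SE 0.11, edgeR adjusted p = 0.0231). Rrp1b, a nucleolar partner of protein phosphatase 1, was at 19.7, 24.6 and 21.2 CPM against 15.7, 15 and 13.7 CPM in Con A (0.56, SE 0.17, edgeR adjusted p = 0.0474). In all 3 genes the FMT-Con A libraries lay above the Con A libraries without overlap.

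Utp15 stood at 14.2, 12.2 and 12.5 CPM in FMT-Con A against 20.5, 16.9 and 19.3 CPM in Con A (-0.54, SE 0.13, edgeR adjusted p = 0.0235), between WT (8.77 to 10 CPM) and Con A. Rrs1 stood at 24.2, 22.2 and 21.8 CPM (-0.49, SE 0.12, edgeR adjusted p = 0.0232), again between WT and Con A with no overlap. Nop16 and Mybbp1a were higher in all FMT-Con A libraries than in all Con A libraries but did not pass (0.42 and 0.33, edgeR adjusted p = 0.0708 and 0.0664).

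**Figure D3:**
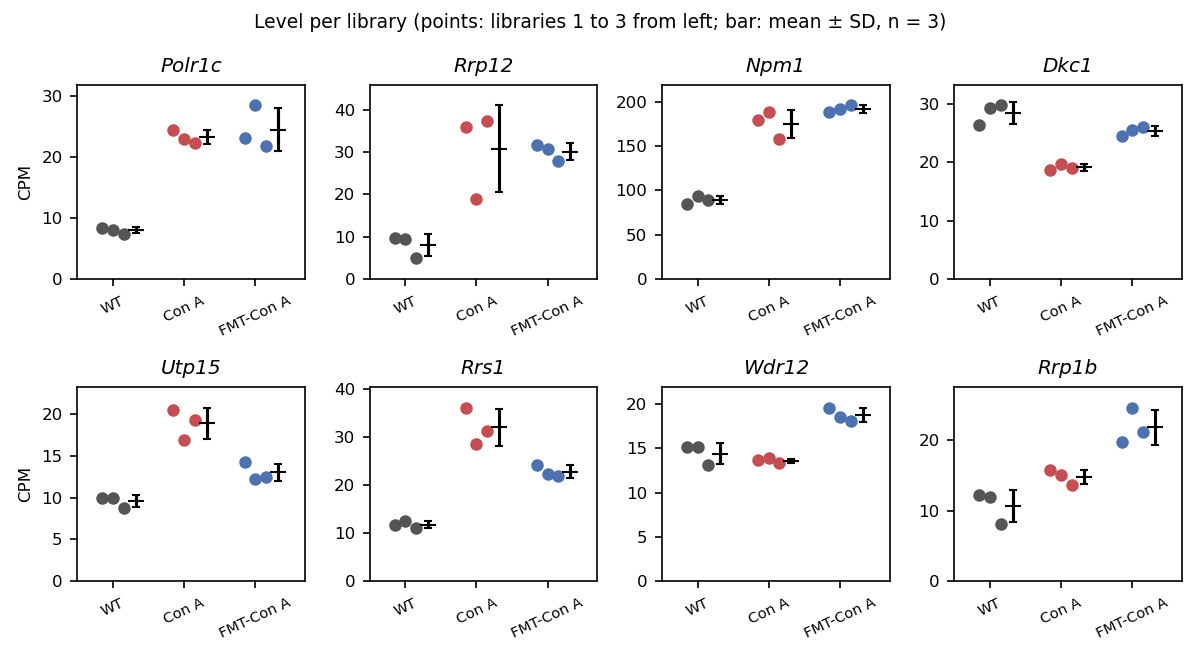
CPM (vertical axis, from 0) of 8 genes in the 3 libraries of each group (points) with mean ± SD (bars, n = 3). Polr1c, Rrp12 and Npm1 are high in both injected groups, Dkc1 dips in Con A, Utp15 and Rrs1 are highest in Con A, and Wdr12 and Rrp1b are highest in FMT-Con A.

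All 5 of these calls were lost without Con A 1, without FMT-Con A 1 or without FMT-Con A 3, and without Con A 3 only that of Rrs1 was made. The call of Rrp1b was also lost without WT 1, WT 2, Con A 2 or FMT-Con A 2, and that of Rrs1 without WT 1. Without Con A 2, in contrast, 5 genes were lower, with Ddx10, Tsr1 and Ltv1 added. Library totals ended the calls of Utp15 and Rrs1, the fit of only the 6 libraries compared those of Dkc1, Utp15 and Rrs1, and the fit without the filter on low counts those of Dkc1 and Wdr12. Over the 19 alternatives 17 of the 40 genes changed sign in this comparison, none of them among the 5. Without both muscle-rich libraries FMT-Con A 1 and 3, which leaves 1 FMT-Con A library assumed to vary like the other groups, none was made, with log2 fold changes of 0.42 for Dkc1, 0.44 for Wdr12, 0.73 for Rrp1b, -0.63 for Utp15 and -0.53 for Rrs1. For 27 of the 40 genes the 95% interval of this comparison lay within a 1.5-fold change in either direction.

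The third comparison, FMT-Con A with WT, shares its WT libraries with the first, so the 2 are given side by side only. Here 29 of the 40 genes rose, 0 fell and 11 did not pass (edgeR adjusted p under 0.05), where 31.2% of all genes rose and 27.9% fell (59% in either direction). No member was lower at an unadjusted p under 0.05 in edgeR, and DESeq2 called 0 lower. The median log2 fold change was 0.82, against 0.03 over all genes tested. At 2-fold or more 11 (27.5%) rose, where 19.1% of all genes did. The summed level of the 40 genes in FMT-Con A 1 to 3 was 1790, 1860 and 1810 CPM. In 30 genes all FMT-Con A libraries were above all WT libraries (35.4% of all genes tested), and in Dkc1 all were below (33.7%). Without FMT-Con A 1 and 3 together, 24 of the 29 calls remained, and those of Nop56, Ncl, Utp15, Nob1 and Wdr12 were lost. Nop56, Utp15 and Wdr12 also lost theirs without WT 3, Utp15 without FMT-Con A 1 and Nop56 without FMT-Con A 3, and upper quartile factors ended the calls of Nop56 and Wdr12.

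Rrp12 again had the largest value, at 31.7, 30.7 and 27.9 CPM in FMT-Con A 1 to 3, with far less spread than in Con A (log2 change 1.9, SE 0.29, edgeR adjusted p = 0.000434). Polr1c was at 23.1, 28.5 and 21.8 CPM (1.62, SE 0.13, edgeR adjusted p = 7.99e-06), Bysl at 21.6, 24.3 and 21.3 CPM (1.43) and Ltv1 at 25.5, 23.2 and 24.5 CPM (1.4). For these 4 genes no FMT-Con A library came near WT. Npm1 was at 188, 192 and 196 CPM (1.11, SE 0.12, edgeR adjusted p = 4.87e-05).

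By role, FMT-Con A against WT gave 1 risen gene of 4 for RNA polymerase I (Polr1c), 5 of 7 for snoRNPs, 3 of 3 for the nucleolar proteins, 11 of 15 for the small subunit and 9 of 11 for the large subunit, with medians of 0.15, 0.75, 0.86, 0.93 and 0.87. Among the genes that did not pass here were Rrn3, Ddx10, Tsr1, Utp14a and Noc3l. Tsr1 was at 14.2, 9.67 and 14.7 CPM and Ddx10 at 12.6, 15.8 and 14.2 CPM in FMT-Con A, overlapping with WT in both cases.

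The other genes of the pathway, taken from lists of the same machinery, gave these values after Con A, where 32.5% of all genes tested rose and 30.9% fell. Of 46 other small-subunit factors 24 rose and 4 fell (median 0.37), and of 51 other large-subunit factors 34 rose and 3 fell (median 0.46). Heatr1, of the subcomplex of Wdr43 and Utp15, had a log2 change of 1.74 (SE 0.19, edgeR adjusted p = 3.56e-05). Eif6, which keeps the large subunit from joining the small one, had the largest value of these lists, from 14.3 ± 1.93 to 149 ± 50.2 CPM (SD, n = 3, log2 change 3.39, SE 0.28, edgeR adjusted p = 6.03e-06). Nat10, the acetyltransferase of small-subunit RNA, fell by 0.77 on the log2 scale. Of 18 other RNA polymerase I genes 5 rose and 5 fell (median -0.16), 2 and 6 with upper quartile factors (median -0.36) and 1 and 6 with library totals (median -0.35). Ubtf, the factor that holds ribosomal DNA open, did not pass (-0.19, edgeR adjusted p = 0.137). With upper quartile factors 18 of the small-subunit list rose and 7 fell (median 0.16), and with library totals 19 and 6 (median 0.17). Of the large-subunit list 24 rose and 5 fell under both (medians 0.26 and 0.27).

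In FMT-Con A against Con A, 1 of the other small-subunit factors was higher and 2 lower, 2 of the large-subunit factors were higher and 2 lower, and 2 were higher in each of the snoRNP and RNA polymerase I lists. With 6.26% of all genes higher and 10.6% lower, the counts of both subunit lists are below the background. With library totals they were 6 higher and 1 lower, and 5 higher and 1 lower. Of all 17704 genes 2116 were higher and 1122 lower under that scaling. Rcl1, a factor of early small-subunit processing, was at 272 ± 53.5 CPM in Con A and 115 ± 28.5 CPM in FMT-Con A (SD, n = 3, log2 change -1.24, SE 0.2, edgeR adjusted p = 0.00583). Eif6 was at 73.6 ± 16.1 CPM in FMT-Con A, a log2 change of -1.02 from Con A (edgeR adjusted p = 0.0272). Against WT, FMT-Con A gave 21 risen and 2 fallen small-subunit factors, 35 and 1 large-subunit factors, 16 and 1 snoRNP and exosome genes and 5 and 3 RNA polymerase I genes. Of all genes tested 31.2% rose and 27.9% fell in that comparison.

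The cytosolic ribosomal proteins are the products assembled and not the assembly factors. After Con A 27 of 79 rose and 13 fell (median 0.03), where 32.5% of all genes tested rose and 30.9% fell. The risen share is near that of all genes and is no result about this list. With upper quartile factors the median turned to -0.17, with 15 risen and 20 fallen. With library totals it was -0.16, with 17 risen and 21 fallen. Many ribosomal protein genes have near-identical processed copies, so single values are uncertain. In FMT-Con A against Con A, 6 of 79 were higher and 0 lower (median 0.24), where 6.26% of all genes were higher and 10.6% lower. The count of higher genes is near the background, yet 73 of 79 values were positive, against 8716 of 17704 over all genes. Libraries did not overlap upward in 28 of 79 (14% of all genes tested) and downward in 0 (18.8%). The number of higher genes was 12 with upper quartile factors and 37 with library totals. Of all 17704 genes 1458 and 2116 were then higher, with median shifts of 0.1 and 0.19. In FMT-Con A against WT 41 rose and 3 fell (median 0.4), where 31.2% of all genes rose and 27.9% fell. The plot of lists sets these values beside the 40 genes.

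**Figure D4:**
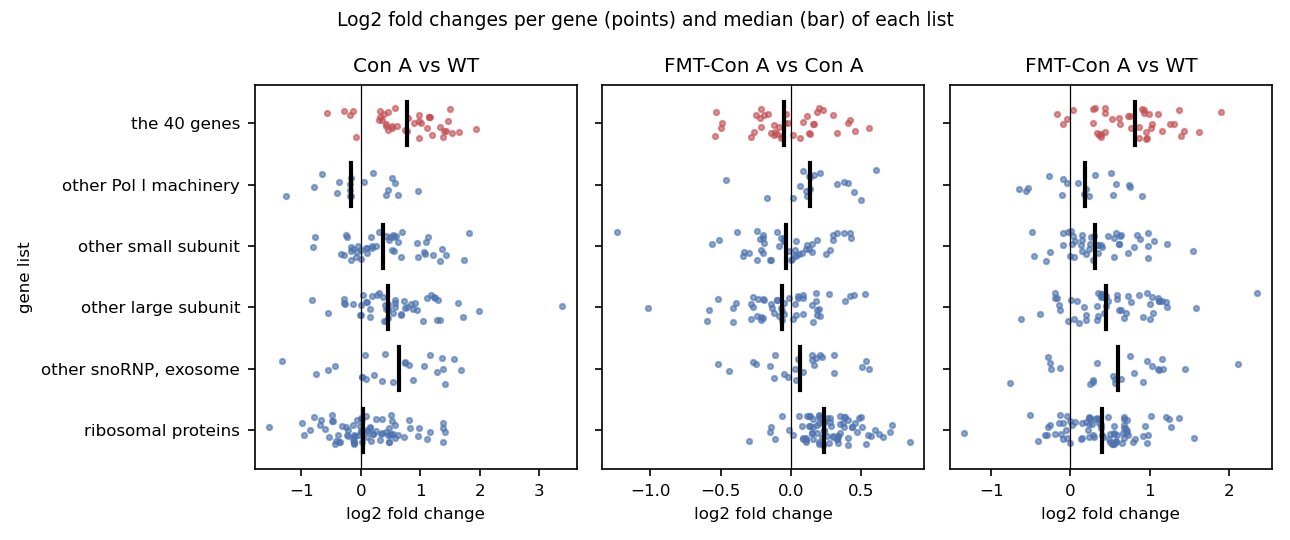
Log2 fold change (horizontal axis) of every tested gene (points, jittered vertically) and the median (black bar) of the 40 genes and of 5 lists of related genes, in the 3 comparisons. In Con A vs WT the bar of the 40 genes is at 0.79 and that of the ribosomal proteins at 0.03.

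In the MYC network, Myc itself was at 13.2, 16.1 and 29.4 CPM in WT and 39.6, 28.4 and 22.4 CPM in Con A. The groups overlapped through WT 3, and the difference did not pass (log2 change 0.62, SE 0.29, edgeR adjusted p = 0.0826). In FMT-Con A it was at 15.2, 14.7 and 15.5 CPM, below all Con A libraries (-0.99, SE 0.29, edgeR adjusted p = 0.0438) and not past the threshold against WT (-0.37, edgeR adjusted p = 0.29). Mxd1, a partner of MAX that represses E-box genes, rose from 7.99 ± 0.756 to 166 ± 30.2 CPM in Con A (log2 change 4.37, edgeR adjusted p = 1.95e-07) and was at 69.7 ± 8.72 CPM in FMT-Con A. Of the 10 tested genes of this network 4 rose and 3 fell after Con A, near the 32.5% and 30.9% of all genes. In FMT-Con A against Con A 4 of the 10 were lower (2 with upper quartile factors and 1 with library totals), where 10.6% of all genes were. Of the p53 and nucleolar stress list 6 of 9 rose after Con A and 1 fell, against the same 32.5% and 30.9% of all genes. Cdkn1a, the p53 target that arrests the cell cycle, was at 3.48, 1.36 and 0.751 CPM in WT and 354, 193 and 249 CPM in Con A (log2 change 7.16, edgeR adjusted p = 3.92e-06). The proliferation list gave 4 risen and 3 fallen of 17 after Con A, below both shares of all genes. In FMT-Con A against WT it gave 4 risen and 8 fallen, where 31.2% of all genes rose and 27.9% fell. The list was split by gene. Mcm4 rose in both comparisons (log2 changes 1.89 and 1.82) and Mcm3 rose after Con A (1.56). Birc5, at 3.64 CPM in WT, fell in both (-2.25 and -2.73). Mki67, a marker of cycling cells, was at 8.28, 13.4 and 6.26 CPM in WT, 7.69, 8.67 and 8.2 CPM in Con A and 4.57, 5.98 and 4.31 CPM in FMT-Con A. It was lower in FMT-Con A than in WT (log2 change -0.91, SE 0.27, edgeR adjusted p = 0.014).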

How the data were processed

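Liver mRNA was measured in 9 libraries, 3 per group. The deposited values are read counts per gene, whole numbers with no normalisation, as the authors' files give them (1 file per library). CASAVA, HISAT2 and featureCounts were used with GRCm38 (mm10), per the submitters' processing notes. Versions, annotation release, strand setting and treatment of multiply mapping reads are not given in the sources used here. Entries without an Ensembl identifier held 1.43 to 1.98% of the counts.

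Counts of all libraries were fitted together, with group as the only term, with edgeR 4.0.16 (R 4.3.3), using TMM scaling, the filterByExpr filter (minimum count 10, minimum total 15) and 6 residual degrees of freedom. Contrasts were two-sided quasi-likelihood F tests, adjusted by Benjamini-Hochberg over 17704 genes. Each SE was derived from the log2 change and its F statistic. The fit was tested on simulated counts. Alternatives were other scalings, no filter, DESeq2 1.42.0, a replicate block, only the libraries compared, and each library left out. Leaving out FMT-Con A 1 and 3 together was added after seeing the data.

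The members and lists were chosen with earlier results of these data known. All members may be named. From each list up to 2 of the largest rises and 2 of the largest falls past the threshold may be named, and Myc, Ubtf, Trp53, Cdkn1a, Mki67 and Alb whatever their p. Srr, Ccnd3 and Samd11 are named as overlapping genes, Ddx3y and Xist for the sex labels.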

Additional observations from a re-analysis of the deposited data

How the results depend on the processing

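Counts of members past the threshold were recomputed under 19 alternatives. After Con A, 24 members rose with upper quartile factors or library totals. The members lower than WT numbered 3 with upper quartile factors (Dkc1, Polr1a and Wdr12) and 2 with library totals (Dkc1 and Polr1a). With a library left out they numbered 1 to 2. For FMT-Con A against Con A, the members higher numbered 5 with upper quartile factors, 7 with library totals, 1 without the filter on low counts and 0 without FMT-Con A 1 and 3 together (0 to 3 with a library left out). The members lower numbered 0 with library totals, 0 with only the 6 libraries compared, 6 without Con A 2 and FMT-Con A 2 together and 0 without FMT-Con A 1 and 3 together (0 to 5 with a library left out). Against WT, 1 member (Dkc1) was lower in FMT-Con A with upper quartile factors. In FMT-Con A against Con A the median of all genes tested shifted too, by 0.1 with upper quartile factors and by 0.19 with library totals. Of 17704 genes 1458 and 2116 were then higher instead of 1108, and 1360 and 1122 lower instead of 1873. The causes were not tested. Log2 fold changes that did not pass turned sign for 17 members in FMT-Con A against Con A and 3 in FMT-Con A against WT. For Rrp12 in FMT-Con A against Con A they were 0.08 (upper quartile factors), 0.17 (library totals), 0 (only the 6 libraries compared) and -0.27 to 0.13 with a library left out. In FMT-Con A against WT they were -0.2 to 0.08 for Polr1b and -0.1 to 0.12 for Noc2l with a library left out, and 0.04 for Polr1b, -0.04 for Tsr1 and -0.06 for Noc2l without FMT-Con A 1 and 3 together, and -0.07 for Noc2l with upper quartile factors. Deviations of same-numbered libraries correlated at -0.22 to 0.34, so the numbers were not taken to pair the libraries. With the replicate block 32 members rose after Con A, 3 were higher and 2 lower in FMT-Con A against Con A, and 30 rose in FMT-Con A against WT.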
